A study of Mus musculus with 18 samples.

Results

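The comparison was between splenic CD8 T cells of mice that were switched back to a normal diet and those of mice that stayed on a high fat diet. Its members were the 6 libraries labelled as switched diet (SW) and the 6 labelled as high fat diet (HFD), out of 18 libraries in all. SW mice had spent 6 weeks on the high fat diet before 6 weeks on the normal one. HFD mice had received the high fat diet for all 12 weeks. A further 6 libraries from mice on a normal diet for 12 weeks (ND) served as reference, and they also entered the estimate of spread. All groups were wild type (WT), all RNA came from freshly isolated spleen cells labelled CD8, and no age or sort purity is given. No group was sampled at 6 weeks, so a change that had arisen and reverted cannot be told apart from one that had not arisen by then. The labels number the libraries 1 to 6 within each diet but do not say that each is a separate mouse. The p-values therefore measure the spread between these samples, which may be technical.

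CD8 T cells circulate through the spleen mostly as naive cells, and a smaller pool has met antigen and become effector or memory cells, which carry surface CD44 and genes for granzymes, chemokines and their receptors. Blimp-1 (Prdm1), T-bet (Tbx21) and Bhlhe40 are transcription factors of that activated pool. Ferroptosis, the death by iron-dependent lipid peroxidation that the series title names, is opposed by the lipid peroxide reductase GPX4 and favoured by ACSL4, which loads polyunsaturated fatty acids into membranes. SW against HFD asks which transcripts differ by the diet of the last 6 weeks among mice that had all received the high fat diet at first.

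The label CD8 held in the counts. Cd8a ran from 1448 to 1635 CPM (median 1510.4) in SW and from 1369.5 to 1584 CPM (median 1497) in HFD, and Cd8b1 from 1203 to 1302 CPM (median 1255) in SW and from 1249 to 1367 CPM (median 1321) in HFD, while Cd4 had a mean of 0.510 CPM in SW and 0.835 CPM in HFD. Ighm, of the B cell list, had a mean of 527 CPM in SW and 560 CPM in HFD, and the part of other cells in the RNA was not tested. CPM is the count of a gene scaled to a common library total after TMM normalisation. Total counts ran from 12098521 to 14953662 in SW and from 13042136 to 15998232 in HFD. In a principal component analysis the first component (13.4% of variance) set HFD 4 apart at 55.0, with the other libraries between -8.83 and 6.31. HFD 4 also had the highest summed level of erythroid markers, and HFD 1 had the highest Hspa1a, at 44.5 CPM. In HFD 4, 17570 genes had a count, the fewest of any library, at a total of 15878207 counts. The other libraries had counts in 18963 to 20155 genes. What set HFD 4 apart was not tested. The second component (12.0%) placed replicates 1 and 2 of every diet at 5.58 or above and the rest at 4.59 or below. Those replicates carry the file numbers 3 and 4, and replicates 3 to 6 carry 5, 8, 9 and 10. What the numbers mark is not given. This number set entered the fit as a factor because the plan of the comparison asked for it.

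Genes called lower in SW included S100a6, Cd44, Bhlhe40 and Prdm1 of effector and memory cells, and genes called higher included the splicing genes Clk1 and Tra2a, the tubulin gene Tubb4b and 8 zinc-finger genes. With edgeR's quasi-likelihood test and Benjamini-Hochberg adjustment, 116 of 13690 tested genes passed an adjusted p of 0.05, which is 0.847% of them. Of these, 63 (0.46%) were higher in SW and 53 (0.387%) were lower. The differences were small: the median size was 0.32 on the log2 scale among higher genes and 0.30 among lower genes, and 4 higher and 12 lower genes reached 1.5-fold. In 16 of the higher and 20 of the lower genes the 6 SW values did not overlap the 6 HFD values, against 107 genes (0.782%) with no overlap among all tested, of which 51 (0.373%) had SW above and 56 (0.409%) had SW below. In the same fit HFD against ND gave 535 calls (3.91%) and SW against ND gave 22 (0.161%). These comparisons share libraries, so their counts are set side by side only. In SW against HFD, 1983 of the 13690 genes (14.5%) had an unadjusted p under 0.05 by edgeR's quasi-likelihood test. The counts of such genes in the lists below are to be read beside that share. DESeq2 called 329 of 11299 genes (2.91%) and limma-voom called 82 of 13690 (0.599%).

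**Figure D1:**
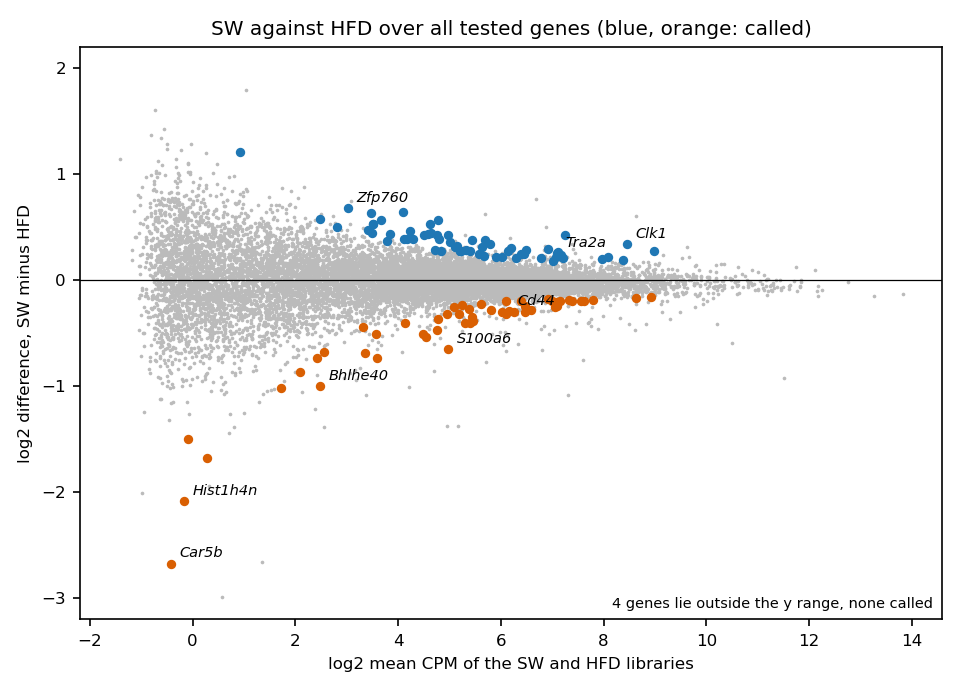
Log2 difference of SW minus HFD (vertical axis) against the log2 mean CPM of the 12 SW and HFD libraries (horizontal axis), 1 point a gene. Blue points were called higher and orange points lower in SW. Most called genes lie within 1 log2 unit of 0, and the differences beyond that are at low levels, where Hist1h4n (-2.08) and Fam129b (-1.68) lie.

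The number of calls rested on single libraries and on the number set. Without the number set as a factor 17 genes were called, all among the 116. Of the 32 called genes that the rule names, 9 passed in that fit: Alg2, Clk1, Fam129b, Fbxw8, Gt(ROSA)26Sor, Hist1h4n, Ncald, Phf13 and Zfp707. Counts fell to 59 without SW 1, 73 without SW 4, 39 without SW 5, 55 without HFD 2 and 74 without HFD 3, and rose to 239 without HFD 1. Of the 116 genes, 16 higher and 15 lower ones were called in all 18 fits that left out 1 library. Scaling by the upper quartile gave 93 higher and 47 lower calls in place of 63 and 53, the 1 CPM filter gave 88 and 51, and RLE size factors gave 77 and 52. These scalings moved the median difference of all genes by less than 0.02.

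**Figure D2:**
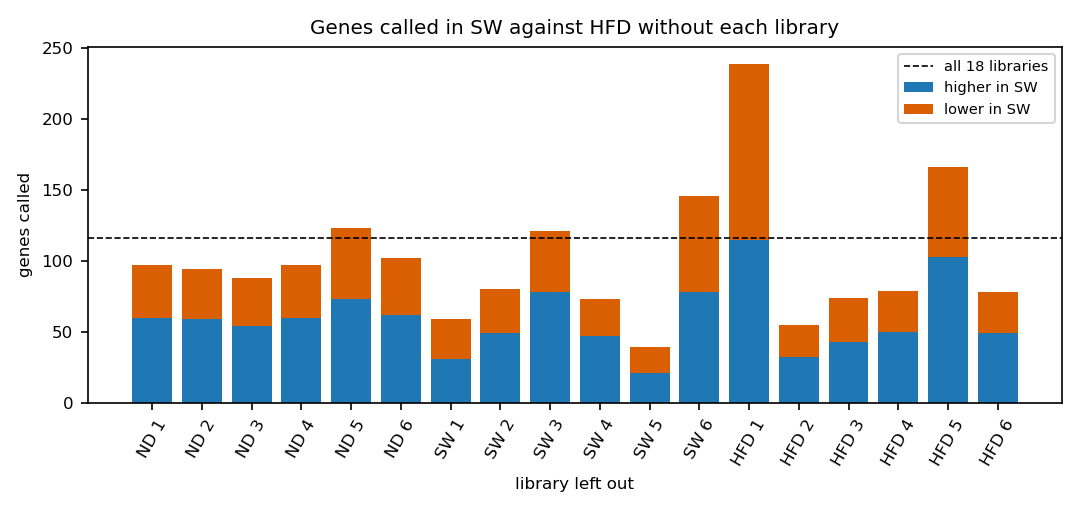
Number of genes called (vertical axis) in SW against HFD when the library named on the horizontal axis was left out, split into higher (blue) and lower (orange) in SW. The dashed line marks the 116 calls of all 18 libraries, and the bars range from 39 without SW 5 to 239 without HFD 1.

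Of the effector and memory genes, 37 were tested and 4 were called lower in SW and none higher: S100a6, Cd44, Bhlhe40 and Prdm1. The list's median difference was -0.40, with 36 genes below 0 and 1 above, beside a median of -0.005 over all tested genes, of which 7054 lay below 0. Its medians were 0.36 for HFD minus ND and 0.03 for SW minus ND. Called members numbered 2 without SW 1, 1 without SW 2, 2 without SW 4, 1 without SW 5, 7 without SW 6, 7 without HFD 1 and 2 without HFD 2. No member was called without the number set, where the median was -0.39. In replicates 3 to 6 only the median was -0.25 with 1 called, and in replicates 1 and 2 only it was -0.46 with none called. DESeq2 called 11 members and limma-voom 5, all lower. Over all genes DESeq2 called 2.91% and limma-voom 0.599%, both directions counted. In bulk RNA, fewer cells of a type and less RNA per cell cannot be told apart.

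S100a6, a small calcium-binding protein of the S100 family (chromosome 3, 90612882 to 90624181, GRCm38), ran from 17.4 to 36.03 CPM (median 24.00) in SW and from 30.2 to 44.2 CPM (median 39.4) in HFD. Of the SW libraries 1 lay inside the HFD range and the others below it. The ND libraries ran from 21.7 to 30.7 CPM (median 26.9). S100a6 was lower in SW by a log2 difference of -0.65 ± 0.11 (SE; adjusted p = 0.00778), and it was called in all 18 fits without 1 library. Without the number set its adjusted p was 0.0939. By number set the difference was -0.77 in replicates 1 and 2 and -0.60 in replicates 3 to 6. Its promoter is printed because it was the called effector gene with the smallest adjusted p. The 250 bases upstream of the start are from RefSeq (GRCm38.p6, plus strand, 5′ to 3′), and the capitals mark the single CCAAT box match, read on the other strand.
S100a6 chr3:90612644-90612893: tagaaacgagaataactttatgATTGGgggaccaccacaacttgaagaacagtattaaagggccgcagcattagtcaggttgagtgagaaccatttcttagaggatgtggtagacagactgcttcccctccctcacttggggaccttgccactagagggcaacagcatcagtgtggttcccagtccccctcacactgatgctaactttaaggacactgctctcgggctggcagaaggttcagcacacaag

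Cd44, the hyaluronan receptor used as a surface mark of antigen-experienced T cells (chromosome 2, 102811141 to 102901665), ran from 56.9 to 72.6 CPM (median 63.9) in SW and from 71.4 to 87.9 CPM (median 77.5) in HFD. Only the edges of both ranges overlapped, and ND ran from 56.2 to 66.8 CPM (median 61.5). The log2 difference was -0.29 ± 0.06 (SE; adjusted p = 0.017). The call was lost without SW 2, SW 4, SW 5, HFD 4 or HFD 6, where the adjusted p reached 0.0845 (without SW 5).

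Bhlhe40, a basic helix-loop-helix transcription factor (chromosome 6, 108660629 to 108666925), ran from 2.89 to 4.99 CPM (median 3.55) in SW and from 6.01 to 13.04 CPM (median 6.42) in HFD. Every SW library lay below every HFD library, although HFD 2 at 13.0 CPM stood apart from the other 5, which reached 6.80. Bhlhe40 differed by -1.004 ± 0.22 (SE; adjusted p = 0.0219). By number set it was -1.75 in replicates 1 and 2 and -0.62 in replicates 3 to 6. The call was lost without SW 1, SW 2, SW 5 or HFD 2, with adjusted p up to 0.0703 (without SW 1), and the difference ran from -1.10 to -0.75. Prdm1, which encodes Blimp-1 of effector T cells and plasma cells (chromosome 10, 44437177 to 44528501), ran from 2.58 to 4.84 CPM (median 4.54) in SW and from 3.91 to 8.77 CPM (median 6.88) in HFD. These ranges overlapped. Its log2 difference was -0.74 ± 0.19 (SE; adjusted p = 0.0479). When 1 library was left out, that call was kept only without SW 3, SW 6, HFD 4 or HFD 5, and the highest adjusted p was 0.123 (without SW 2).

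The other effector genes did not pass with edgeR's quasi-likelihood test. DESeq2 also called Ifng, Ccl5, Il2rb, Itgb1, Lgals1, Nkg7 and Zeb2, and limma-voom also called Zeb2. Values below 0 were seen for the granzyme genes Gzmb (-1.09, adjusted p = 0.233) and Gzma (-1.01, adjusted p = 0.387), the cytokine gene Ifng (-1.08, adjusted p = 0.132), the chemokine gene Ccl3 (-1.03, adjusted p = 0.252) and the death ligand gene Fasl (-0.88, adjusted p = 0.123). Gzmb ran from 2.78 to 10.03 CPM (median 6.46) in SW and from 6.66 to 32.3 CPM (median 11.9) in HFD, and its 2 ranges overlapped. Tbx21, the gene for T-bet, was the member above 0, at 0.12 (adjusted p = 0.746). The inhibitory receptor list had no call among 17 genes with edgeR's quasi-likelihood test, DESeq2 or limma-voom. Its median was -0.32, with 13 genes below 0, and 4 genes had an unadjusted p under 0.05 (all tested genes: 14.5%). That median ran from -0.42 to -0.145 without 1 library and from -0.70 to -0.11 over all alternatives. By library, the members' median log2 distance from their 18-library means was 0.37 in HFD 1 and 0.29 in HFD 2. It was -0.11 to 0.12 in the other HFD libraries and -0.33 to 0.16 in SW. The list member with the smallest p, Ctla4, was at -0.95 ± 0.36 (SE; adjusted p = 0.234).

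**Figure D3:**
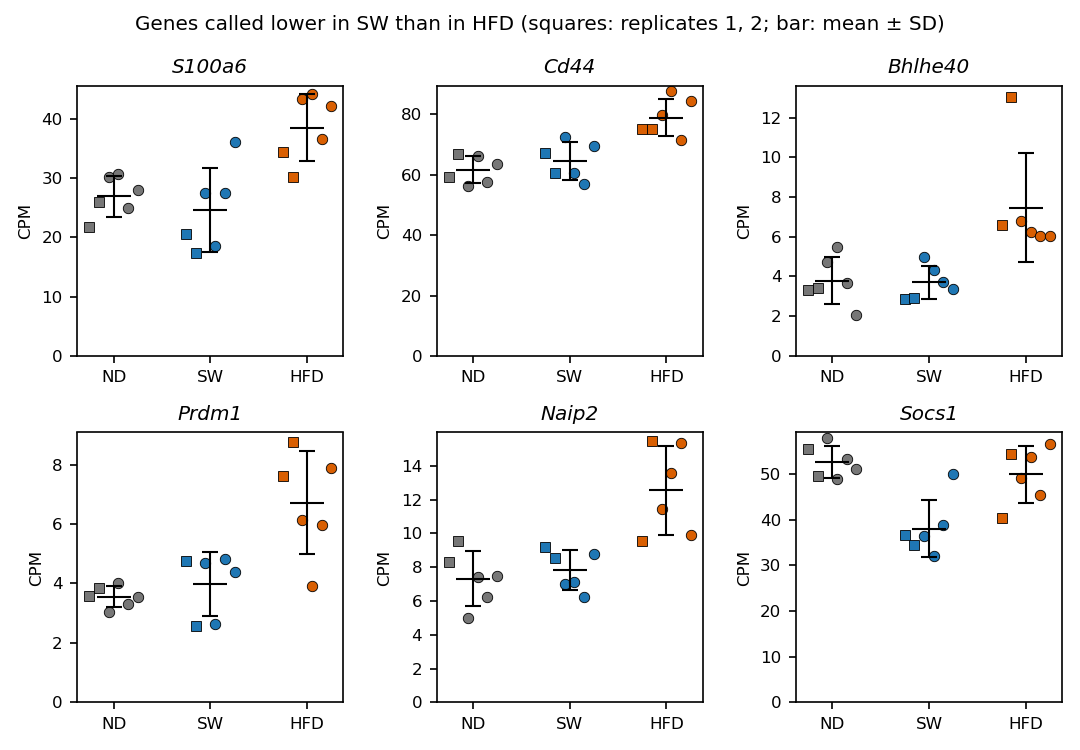
CPM in each library (vertical axis) for 6 genes called lower in SW, by diet (horizontal axis), with the mean and SD as bars and replicates 1 and 2 as squares. The SW points of Bhlhe40 and Naip2 lie below all HFD points, and Socs1 in SW lies below most points of both other diets.

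Markers of other spleen cells had no call except Prdm1 in the plasma cell list, by edgeR's quasi-likelihood test, DESeq2 or limma-voom, and several list medians lay below that of all genes. An unadjusted p under 0.05 was given by 3 dendritic cell, 4 myeloid, 3 erythroid, 2 plasma cell and 2 CD4 T cell genes, and by 0 genes of the other lists. Over all tested genes that share was 14.5%. The median difference was -0.27 over 13 dendritic cell genes, -0.42 over 9 genes of monocytes, macrophages and neutrophils, -1.24 over 8 erythroid genes, -0.34 over 5 plasma cell genes and -0.18 over 9 CD4 T cell genes. It was -0.11 over 6 B cell genes, -0.05 over 7 natural killer cell genes, -0.11 over 4 gamma delta T cell genes and -0.03 over 2 platelet genes. These medians moved with the setting. Over all alternatives the erythroid median ran from -1.58 to -0.13 and the myeloid one from -1.12 to -0.17. The dendritic cell median ran from -0.80 to -0.08, the plasma cell one from -0.80 to -0.10 and the CD4 T cell one from -0.23 to -0.11. The other medians reached both sides of 0. Summed CPM of the 20 myeloid genes was 23.6 to 39.8 in SW (median 32.5) and 33.2 to 47.3 in HFD (median 40.2), with Ly6g at 0 in all 12 libraries. Summed CPM of the dendritic cell genes was 749.8 to 1308 in SW (median 1118) and 1125 to 2304 in HFD (median 1341), and that of the erythroid genes was 102 to 162 in SW (median 113) and 77.02 to 422 in HFD (median 155). For plasma cell genes it was 55.5 to 102 in SW (median 65.02) and 62.6 to 127 in HFD (median 80.8). For B cell genes it was 515 to 631 in SW (median 570) and 539 to 692 in HFD (median 611). All of these summed ranges overlapped between SW and HFD. Without HFD 1 and HFD 4 together, an alternative chosen after seeing the data, 7 effector and memory genes were called lower, and that list's median was -0.39. The part of these cells in the lower effector, histone and other genes was not tested.

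Of the 12 largest falls among called genes with a mean of at least 1 CPM, Fam129b, Ncald, Naip2, S100a6, Fbxw8 and Phf13 were called in all 18 fits without 1 library, and so was Hist1h4n, whose mean was under 1 CPM. Hist1h4n, a histone H4 gene with near-identical copies, so that its reads are uncertain, ran from 0.0828 to 0.624 CPM (median 0.335) in SW and from 0.637 to 2.58 CPM (median 1.40) in HFD. The groups did not overlap, and the log2 difference was -2.08 ± 0.42 (SE; adjusted p = 0.0102). It was the 1 call among 9 tested replication-dependent and linker histone genes, whose median was -0.34. Their mRNAs mostly lack a poly(A) tail, and the libraries were made by poly-T capture. Fam129b (chromosome 2, 32876114 to 32925254) ran from 0.331 to 0.780 CPM (median 0.571) in SW and from 1.40 to 2.36 CPM (median 1.80) in HFD, again with no overlap, and differed by -1.68 ± 0.31 (SE; adjusted p = 0.00778). Lrsam1 overlaps it on the other strand. Ncald, which encodes the calcium sensor neurocalcin delta, ran from 1.41 to 2.91 CPM (median 2.08) in SW and from 3.54 to 5.84 CPM (median 4.37) in HFD without overlap. Its difference was -1.02 ± 0.21 (SE; adjusted p = 0.0105).

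Naip2, a sensor of bacterial secretion systems that belongs to an inflammasome (chromosome 13, 100144063 to 100202092), ran from 6.24 to 9.20 CPM (median 7.82) in SW and from 9.57 to 15.4 CPM (median 12.5) in HFD. The SW and HFD values did not overlap, and the log2 difference was -0.69 ± 0.14 (SE; adjusted p = 0.0102). Phf13, a PHD-finger reader of trimethylated histone H3, ran from 15.4 to 21.5 CPM (median 18) in SW and from 21.3 to 33.2 CPM (median 26.1) in HFD and differed by -0.51 ± 0.10 (SE; adjusted p = 0.00825). Fbxw8, a substrate adaptor of a cullin ubiquitin ligase, differed by -0.51 ± 0.11 (SE; adjusted p = 0.0139). In Phf13 and Fbxw8 the ranges touched at their edges. In these 3 genes the differences were 0.78 for HFD minus ND and 0.09 for SW minus ND (Naip2), 0.42 for HFD minus ND and -0.09 for SW minus ND (Phf13) and 0.46 for HFD minus ND and -0.05 for SW minus ND (Fbxw8).

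Gpr15, a receptor that guides T cells to the large intestine, ran from 6.21 to 10.9 CPM (median 10.01) in SW and from 9.98 to 19.2 CPM (median 15.2) in HFD, with a narrow overlap. Its log2 difference was -0.74 ± 0.15 (SE; adjusted p = 0.0176), and the call was lost without HFD 2 (adjusted p = 0.0627). Zdhhc2, a palmitoyltransferase, differed by -0.87 ± 0.19 (SE; adjusted p = 0.0166) and lost its call without SW 2 (adjusted p = 0.0517). Trim13, a ubiquitin ligase of the endoplasmic reticulum, differed by -0.68 ± 0.15 (SE; adjusted p = 0.0251) with no overlap of the groups. That call was lost without SW 1, SW 4, SW 5, SW 6 or HFD 2, with adjusted p up to 0.0924. Gpr15, Zdhhc2 and Trim13 overlap Cpox, Cnot7 and Dleu2 on the other strand, and whether counting used strand is not given, so their reads cannot be told apart from those of these partners. Other named genes share this limit. Bhlhe40 and Tra2a overlap a gene on the other strand, and Cd27, Fbxw8 and Ncald overlap genes on both strands. Naip2, Noct and Pkm overlap a gene on their own strand.

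Pmaip1, the BH3-only death gene Noxa, ran from 15.99 to 21.5 CPM (median 19.7) in SW and from 24.1 to 39.7 CPM (median 25.3) in HFD without overlap. It was the 1 call among 14 tested BCL2 family genes, at a log2 difference of -0.54 ± 0.11 (SE; adjusted p = 0.0186). HFD 2 was its highest library, with the next at 27.9 CPM, and the call was lost without SW 1, SW 2, SW 5 or HFD 4 (adjusted p up to 0.0806). Socs1, an inhibitor of cytokine signalling through JAK kinases, ran from 32.03 to 49.98 CPM (median 36.5) in SW and from 40.4 to 56.5 CPM (median 51.5) in HFD, and ND from 48.9 to 57.8 CPM (median 52.2). Its log2 difference was -0.39 ± 0.09 (SE; adjusted p = 0.04), and the values were -0.08 for HFD minus ND and -0.47 for SW minus ND, so SW was the low group. This call was lost without ND 2, any of SW 1 to SW 5, HFD 2, HFD 3, HFD 4 or HFD 6, with adjusted p up to 0.103 (without SW 5). Pkm, pyruvate kinase of glycolysis, differed by -0.16 ± 0.04 (SE; adjusted p = 0.0464) with no overlap. The Pkm call was kept only without ND 5, SW 2, SW 3 or HFD 1, and its adjusted p reached 0.139 (without SW 5).

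Clk1 and Tra2a were the 2 calls, both higher in SW, among 22 tested CLK kinase and SR splicing factor genes. The list's median was 0.09, with 20 genes above 0, and Ddx5 (-0.03) and Srsf4 (-0.01) below. Its medians were -0.09 for HFD minus ND and -0.01 for SW minus ND. Called members numbered 3 without SW 3, SW 6, HFD 4 or HFD 5 and 4 without HFD 1, and 1 without the number set. They numbered 2 in the other fits without 1 library. The median ran from 0.06 to 0.11 over these fits and was lowest without SW 5, where 3 genes lay below 0. Summed CPM of the list was 9733 in SW 5, 8718 to 9045 in the other SW libraries and 8219 to 9067 in HFD. Srsf1 (0.19, adjusted p = 0.0558) and Srsf6 (0.17, adjusted p = 0.077), which encode SR proteins that bind exons, did not pass with edgeR's quasi-likelihood test. DESeq2 called 4 members, Clk1, Tra2a, Srsf1 and Srsf6, and limma-voom called Clk1 and Tra2a (all genes: 2.91% and 0.599%).

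Clk1, a kinase that phosphorylates SR proteins (chromosome 1, 58410189 to 58424066), ran from 366 to 438 CPM (median 387) in SW and from 277 to 364 CPM (median 296) in HFD. Every SW library lay above every HFD library, and ND ran from 351 to 433 CPM (median 389.7). The log2 difference was 0.34 ± 0.06 (SE; adjusted p = 0.0102), and it was 0.25 in replicates 1 and 2 and 0.39 in replicates 3 to 6. The call was kept in all 18 fits without 1 library and without the number set (adjusted p = 0.0394). Tra2a, an SR-like factor that promotes exon inclusion (chromosome 6, 49243924 to 49264033), ran from 136 to 175 CPM (median 145) in SW and from 106 to 138 CPM (median 127) in HFD. The edges overlapped, and the log2 difference was 0.25 ± 0.05 (SE; adjusted p = 0.0102). It was called in all 18 fits without 1 library, and its adjusted p without the number set was 0.0971. On the FPKM scale, which divides by length, the SW median was 49.1 for Clk1 and 21.6 for Tra2a.

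Of 11 tested alpha and beta tubulin genes 1 was called, Tubb4b, higher in SW. The 11 differences were above 0, from 0.02 to 0.29, also with RLE or upper quartile scaling, with a median of 0.09, and the list's medians were -0.21 for HFD minus ND and -0.16 for SW minus ND. Of the 11, 1 lay below 0 in replicates 3 to 6 only and without HFD 2, HFD 4 or HFD 5, 2 did with limma-voom and without SW 4, and 3 did in replicates 1 and 2 only. Summed CPM of the 12 listed tubulins was 1459 to 1647 in SW (median 1528) and 1356 to 1539.5 in HFD (median 1487), beside 1559 to 1751 in ND. Tubb4b, a beta tubulin (chromosome 2, 25222160 to 25224702), ran from 117 to 151 CPM (median 130.4) in SW and from 90.1 to 123 CPM (median 108) in HFD, and ND from 145 to 177 CPM (median 164). SW lay between both other groups, with some overlap on each side. The log2 difference of SW minus HFD was 0.29 ± 0.07 (SE; adjusted p = 0.045), and that of SW minus ND was -0.29 (adjusted p = 0.0854). The Tubb4b call was lost in 9 fits, those without SW 1 to SW 5, HFD 1, HFD 2, HFD 4 or HFD 6, with adjusted p up to 0.0851. Tubulin genes have similar copies, and Fam166a overlaps Tubb4b on the other strand, so its reads are uncertain.

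The promoters of Tra2a and Tubb4b are printed for the letters they hold. Each is the 250 bases upstream of the RefSeq start (GRCm38.p6, minus strand, 5′ to 3′), with capitals on matches to CCAAT (the CCAAT box) and TGACGTCA (the cAMP response element) on either strand. The matches in these sequences read as spelled. Bases shortly after the start were found in a GENCODE transcript of the gene for S100a6 and Tubb4b but not for Tra2a, so the Tra2a start is uncertain.
Tra2a chr6:49264053-49264302: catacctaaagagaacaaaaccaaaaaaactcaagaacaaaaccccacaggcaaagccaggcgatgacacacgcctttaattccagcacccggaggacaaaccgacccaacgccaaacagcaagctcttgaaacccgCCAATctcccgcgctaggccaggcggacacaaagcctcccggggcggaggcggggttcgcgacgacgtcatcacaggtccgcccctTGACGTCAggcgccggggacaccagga
Tubb4b chr2:25224703-25224952: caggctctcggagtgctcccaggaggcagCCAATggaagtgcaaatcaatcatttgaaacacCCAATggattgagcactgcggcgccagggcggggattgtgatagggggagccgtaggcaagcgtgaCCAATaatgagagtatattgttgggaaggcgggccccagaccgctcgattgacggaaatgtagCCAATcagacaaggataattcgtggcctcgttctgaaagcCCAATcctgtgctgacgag
CCAAT was found in 33.8% and TGACGTCA in 1.55% of 32851 RefSeq promoters of this length, both strands searched. Tra2a held 1 match of each. Tubb4b held 5 matches to CCAAT, and 5 or more were found in 70 promoters (0.213%). Among called genes, 79 of 116 had a promoter entry. CCAAT matched a promoter of 16 of 41 higher genes and of 19 of 38 lower genes. CACGTG, the E-box, matched 4 and 4 of these genes against 6.02% of all promoters. TGACGTCA matched 1 and 0, and TATAAA matched 1 and 3 against 12.4% of all promoters. The called counts are of genes and the percentages are of all RefSeq promoters, not only those of tested genes, so they are not like for like. A match here is a description of letters and not of a bound site.

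**Figure D4:**
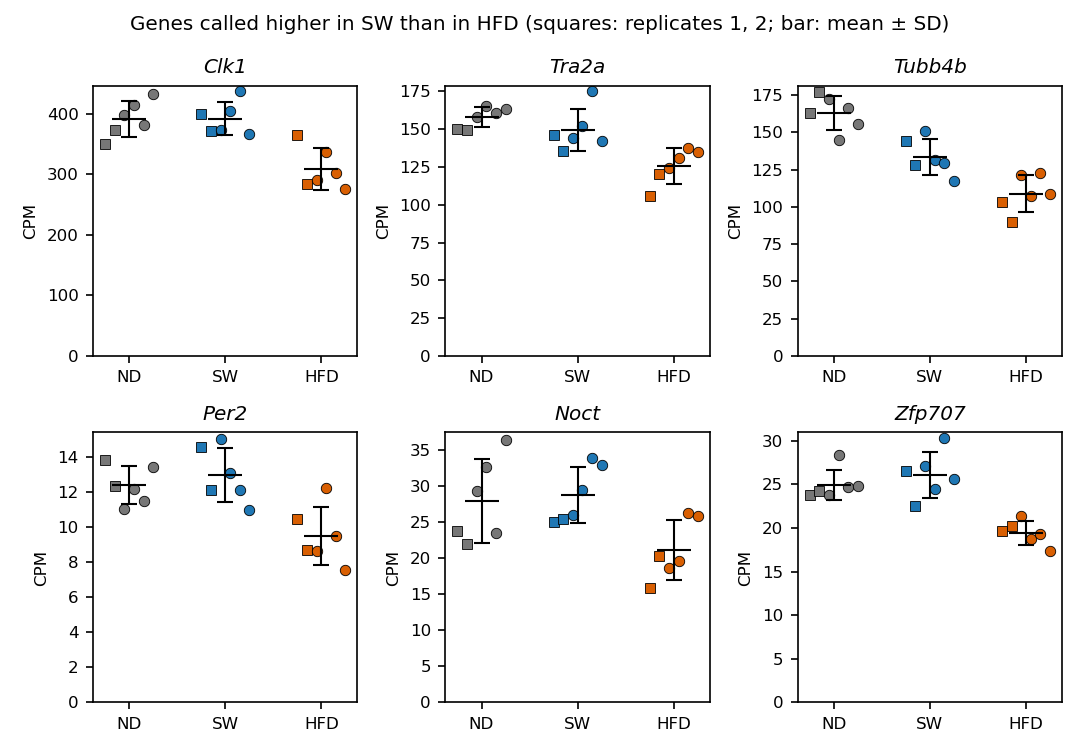
CPM in each library (vertical axis) for 6 genes called higher in SW, by diet (horizontal axis), with the mean and SD as bars and replicates 1 and 2 as squares. Clk1 and Zfp707 in SW lie above all HFD points, while Tubb4b in SW lies between ND and HFD.

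Of the 12 largest rises under the same rule, Zfp707, Timm9 and Alg2 were called in all 18 fits without 1 library. Zfp707, a zinc-finger gene (chromosome 15, 75969123 to 75975868), ran from 22.5 to 30.3 CPM (median 26.1) in SW and from 17.3 to 21.4 CPM (median 19.5) in HFD. The groups did not overlap, and the log2 difference was 0.42 ± 0.08 (SE; adjusted p = 0.00778). Alg2, a mannosyltransferase of N-glycan assembly, ran from 24.7 to 36.2 CPM (median 25.8) in SW and from 16.8 to 22.1 CPM (median 20.8) in HFD, also without overlap. Its difference was 0.44 ± 0.09 (SE; adjusted p = 0.0102), and SW 5 was its highest library. Timm9, a chaperone of the mitochondrial intermembrane space, ran from 24.96 to 36.4 CPM (median 32.7) in SW and from 20.9 to 25.4 CPM (median 23.1) in HFD, with a narrow overlap. Its difference was 0.43 ± 0.08 (SE; adjusted p = 0.00778), and it overlaps Tomm20l on the other strand.

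Zfp760 had the largest rise among named genes, 0.68 ± 0.15 (SE; adjusted p = 0.0251), and lost its call without SW 1, SW 5, HFD 2, HFD 3 or HFD 4 (adjusted p up to 0.0927). Gt(ROSA)26Sor, the noncoding transcript of the Rosa26 locus, ran from 14.8 to 27.2 CPM (median 20.8) in SW and from 11.6 to 16.2 CPM (median 12.9) in HFD. It differed by 0.64 ± 0.13 (SE; adjusted p = 0.0166), was lost without SW 5 or HFD 2 (adjusted p up to 0.0522), and overlaps Thumpd3 on the other strand. Csrnp2, which encodes a nuclear protein, differed by 0.53 ± 0.11 (SE; adjusted p = 0.0169), and Prr33 by 0.57 ± 0.12 (SE; adjusted p = 0.0166). Both were lost without SW 1, at adjusted p of 0.0511 and 0.0508. Prr33 overlaps Lsp1 on the other strand.

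Per2 and Noct are genes of the daily clock, a repressor of the clock loop and nocturnin. Per2 ran from 10.97 to 15.04 CPM (median 12.6) in SW and from 7.55 to 12.3 CPM (median 9.09) in HFD, and its log2 difference was 0.44 ± 0.11 (SE; adjusted p = 0.0487). It was the 1 call among the 16 tested genes of the clock list, which does not hold Noct and whose median was -0.01. Among the fits that left out 1 library the Per2 call was kept only without ND 5, SW 6, HFD 1 or HFD 4 (highest adjusted p 0.1, without HFD 6). Noct ran from 25.03 to 33.8 CPM (median 27.7) in SW and from 15.9 to 26.3 CPM (median 19.9) in HFD and differed by 0.45 ± 0.10 (SE; adjusted p = 0.0289). The Noct call was lost without SW 1, SW 2, SW 5, HFD 3 or HFD 4, with adjusted p up to 0.0927. The hour of collection is not given, and its part in these values was not tested.

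Fgf2, Zswim3, Art2b and Cd27 were also higher in SW. Fgf2 differed by 0.53 ± 0.13 (SE; adjusted p = 0.0409) and shares its locus with Nudt6 on the other strand. Zswim3 differed by 0.50 ± 0.12 (SE; adjusted p = 0.0444). Art2b, a surface ADP-ribosyltransferase of T cells, ran from 149 to 203 CPM (median 171) in SW and from 105 to 150.5 CPM (median 131) in HFD and differed by 0.42 ± 0.09 (SE; adjusted p = 0.045). Fgf2 was lost without SW 1, SW 4, SW 5, HFD 2, HFD 3 or HFD 4 (adjusted p up to 0.135). Zswim3 was lost without ND 1, ND 3, any of SW 1 to SW 5, HFD 2, HFD 3 or HFD 6 (up to 0.0879). Art2b was kept only without ND 1, ND 4, ND 5, HFD 2, HFD 5 or HFD 6 (up to 0.106). Cd27, a costimulatory receptor that naive T cells carry and the 1 call among 10 CD8 T cell genes, ran from 324 to 385 CPM (median 359) in SW and from 268 to 341 CPM (median 316) in HFD. Its difference was 0.19 ± 0.04 (SE; adjusted p = 0.0265), and the call was lost without SW 2, SW 5 or HFD 4 (adjusted p up to 0.0599).

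Genes whose symbol begins with Zfp, Zscan, Zkscan or Znf made up 8 of the 63 higher calls (12.7%), none of the 53 lower calls, and 337 of all 13690 tested genes (2.46%). The 8 were Zfp760, Zfp707, Zfp182, Zfp950, Zfp738, Zfp369, Zscan26 and Zfp146, with log2 differences from 0.68 down to 0.23. Over the 337 genes the median difference was 0.07 and 237 lay above 0. Higher genes had a median gene span of 13.9 kb and lower genes one of 49.1 kb, beside 18.3 kb over all tested genes. The median GC content of the longest transcript was 47.6% in higher and 49.2% in lower genes, beside 49.3% over all. Noncoding genes of the lincRNA and antisense classes made up 12 of the higher calls (19.0%) and 0 of the lower calls, beside 697 (5.09%) of all tested genes.

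The ferroptosis and iron lists gave no call with edgeR's quasi-likelihood test. An unadjusted p under 0.05 was given by 5 ferroptosis defence genes, 2 ferroptosis promotion genes and 5 iron genes (all tested genes: 14.5%). DESeq2 called 1 gene of these lists, Sod1, and limma-voom 0 (all genes: 2.91% and 0.599%). The ferroptosis defence list (24 tested) had a median of -0.03, the ferroptosis promotion list (17 tested) 0.02 and the iron list (19 tested) -0.04. Gpx4 ran from 89.9 to 99.7 CPM (median 94.4) in SW and from 87.9 to 105 CPM (median 101) in HFD, with nearly the same range, and its log2 difference was -0.05, 95% interval -0.15 to 0.05 (adjusted p = 0.674). Acsl4 was at 0.06, 95% interval -0.06 to 0.19, and Tfrc, the transferrin receptor gene, at 0.02, 95% interval -0.10 to 0.15. The ferritin genes Fth1 and Ftl1 were at -0.11, 95% interval -0.20 to -0.01, and -0.04, 95% interval -0.16 to 0.08. The intervals of these genes reach no further than 0.20 from 0, but other members of the lists lay further out. Hmox1, with the smallest p of the promotion list, was at -0.56, 95% interval -1.025 to -0.10 (adjusted p = 0.23). Differences ran from -0.17 to 0.50 in the defence list and from -0.57 to 0.11 in the iron list. Sod1, a superoxide dismutase, had the smallest p of the defence list, at -0.17 ± 0.04 (SE; adjusted p = 0.0546).

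Glycolysis and fatty acid oxidation genes had medians below that of all genes, by about 0.1 log2 unit. In the glycolysis list 20 of 21 tested genes lay below 0, with a median of -0.10 and Pkm as the 1 call by edgeR's quasi-likelihood test. In that list 8 genes had an unadjusted p under 0.05 (all tested genes: 14.5%). In it DESeq2 called 3, Gpi1, Pfkl and Pkm (all genes: 2.91%). Its summed CPM was 3091 to 3392 in SW (median 3359.5) and 3476 to 3682 in HFD (median 3522), without overlap. In the fatty acid oxidation list 19 of 24 lay below 0, with a median of -0.11 and no call by edgeR's quasi-likelihood test, 6 genes at an unadjusted p under 0.05, and 1 call (Acads) by DESeq2. Its summed CPM was 1451 to 1594 in SW (median 1509.8) and 1597 to 1691 in HFD (median 1646), which parted by a narrow margin. Glycolysis and fatty acid oxidation are given here out of all the gene lists summed. In every other list the summed ranges of SW and HFD overlapped. Cpt1a, which brings fatty acids into mitochondria, ran from 48.1 to 93.1 CPM (median 62.6) in SW and from 79.3 to 117 CPM (median 99.5) in HFD and was at -0.60 ± 0.19 (SE; adjusted p = 0.158). Cd36, a fatty acid transporter, was at -0.50 ± 0.19 (SE; adjusted p = 0.203), with HFD 1 the highest library at 16.4 CPM. The nuclear oxidative phosphorylation list (32 tested) had a median of -0.04, ribosomal protein genes (35 tested) -0.04 and cholesterol genes (28 tested) 0.05, all without a call by edgeR's quasi-likelihood test. In the same order 8, 5 and 2 genes had an unadjusted p under 0.05, and DESeq2 called 2, 0 and 0 of them. Limma-voom called 0 in the 5 metabolic and ribosomal lists.

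In the proliferation list 28 of 30 tested genes lay below 0, with a median of -0.24, and Ccne1 (0.30) and Ccnd2 (0.05) above. None was called by edgeR's quasi-likelihood test, and 11 had an unadjusted p under 0.05 (all tested genes: 14.5%). DESeq2 called 1 higher and 1 lower (all genes: 2.91%), and limma-voom 0. With 1 library left out, 1 was called higher without HFD 1, 1 lower without SW 6 and 3 lower without HFD 5. The median was -0.14 without HFD 1, -0.07 in replicates 3 to 6 only and -0.65 in replicates 1 and 2 only, where 2 were called lower. Pcna, the sliding clamp of DNA replication, had the smallest p of that list and was at -0.17 ± 0.05 (SE; adjusted p = 0.0946). Immediate early and activation genes had a median of -0.20 over 26, with 21 below 0. Cd69, an early activation marker, ran from 73.6 to 108 CPM (median 83.4) in SW and from 72.3 to 169 CPM (median 147) in HFD and was at -0.66 ± 0.16 (SE; adjusted p = 0.0722). Interferon response genes had a median of 0.02 over 37, and unfolded protein response genes -0.11 over 22. In these 3 lists edgeR's quasi-likelihood test and limma-voom called 0, with 4, 4 and 8 genes at an unadjusted p under 0.05, and DESeq2 called Cd69, none and 2 of them. Tnf ran from 7.79 to 12.2 CPM (median 9.86) in SW and from 8.35 to 15.1 CPM (median 11.1) in HFD with wide overlap, and its difference was -0.16, 95% interval -0.52 to 0.19 (adjusted p = 0.706). For Tnf the values were -0.74 for HFD minus ND and -0.91 for SW minus ND, with adjusted p of 0.014 and 0.0283.

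In 10 other lists no gene was called by edgeR's quasi-likelihood test or by limma-voom. DESeq2 called 5 homing genes, 2 naive T cell genes and 1 gene each of the T cell receptor, NF-kB, heat shock and glucocorticoid lists. Its share over all genes was 2.91%. An unadjusted p under 0.05 was given by 10 actin, 9 homing, 9 glucocorticoid and FOXO, 5 naive, 5 polycomb, 3 T cell receptor, 2 NF-kB, 2 heat shock, 2 mitochondrial and 1 dynein genes. Over all tested genes that share was 14.5%. The median was -0.05 over 19 genes of naive and central T cells, -0.04 over 24 of T cell receptor signalling, -0.03 over 21 of NF-kB subunits and inhibitors, -0.12 over 23 homing receptors and integrins and 0.02 over 26 polycomb genes. It was -0.07 over 17 heat shock genes, -0.05 over 21 actin genes, 0.00 over 17 dynein and dynactin genes, -0.09 over 17 glucocorticoid and FOXO targets and -0.05 over 12 mitochondrially encoded genes. Their members with the smallest p included Lef1, a transcription factor of naive T cells, at 0.15 ± 0.05 (SE; adjusted p = 0.11). Itgb2, the beta chain of the integrin LFA-1, was at -0.14 ± 0.04 (SE; adjusted p = 0.0534). Sgk1, a kinase induced by glucocorticoids, was at -0.19 ± 0.05 (SE; adjusted p = 0.0603), with -0.06 for HFD minus ND and -0.24 for SW minus ND.

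**Figure D5:**
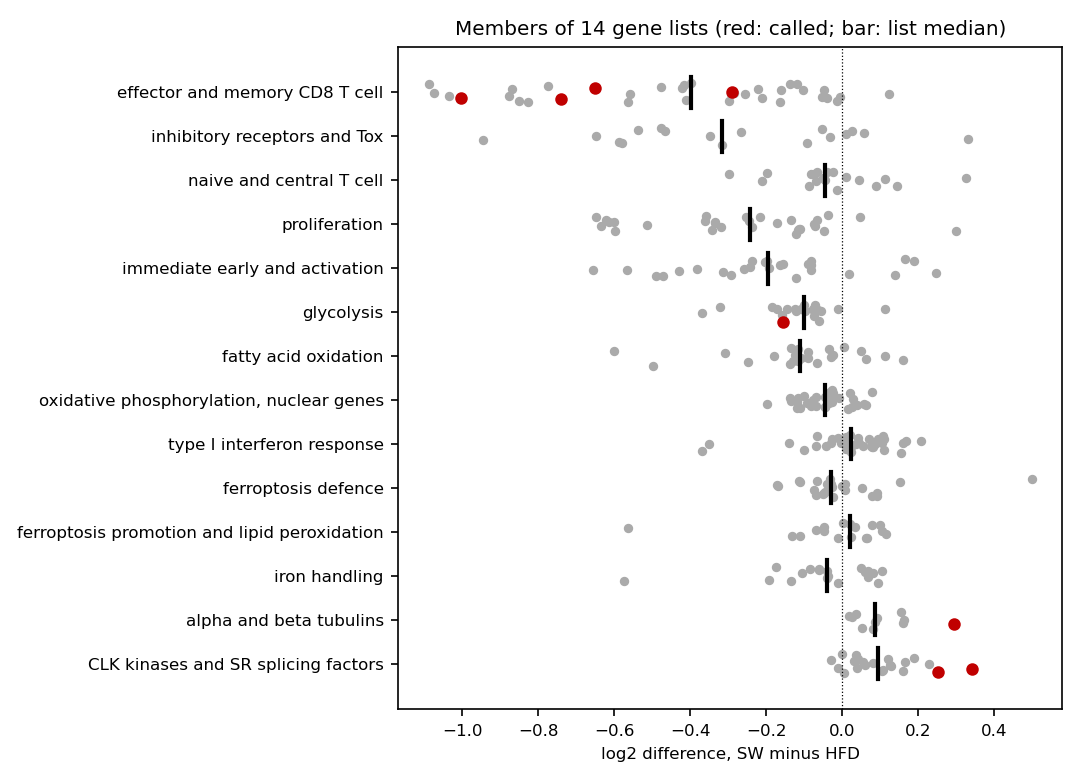
Log2 difference of SW minus HFD (horizontal axis) for every tested member of 14 gene lists (vertical axis), with called genes in red and the list median as a bar. The effector list has its median at -0.40 with 4 called genes, and the ferroptosis and iron lists have medians near 0 with none.

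No gene was called for a difference between the number sets. The interaction of diet and number set in edgeR's quasi-likelihood test gave 0 calls, with 796 of 13690 genes at an unadjusted p under 0.05, and DESeq2 gave 2. The edgeR count was 11 without HFD 2 and 1 without ND 5 or HFD 3. All 116 called genes had the same sign of difference in replicates 1 and 2 as in replicates 3 to 6. These same libraries picked the 116 genes, so that agreement was largely set in advance and is no separate support. Fitted on their own, replicates 3 to 6 (4 libraries a diet) gave 23 calls, of which 14 were among the 116, and replicates 1 and 2 (2 libraries a diet) gave 2, with none among them.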

How the data were processed

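Per the labels' protocols, poly(A) RNA was captured with poly-T beads and read as cDNA made with random hexamers. Per the submitters' processing notes, reads were handled with fastp and the GRCm38 (mm10) genome. No aligner, counter, annotation or strand setting is named by the sources at hand. The authors deposited raw counts per gene and FPKM values for each library. Of 56748 gene IDs, 52125 matched GENCODE M21, and coordinates are from it. Counts went into edgeR 4.0.16 (R 4.3.3) with TMM factors, filterByExpr, robust quasi-likelihood dispersions and a design of diet and number set over 18 libraries. Genes under an adjusted p of 0.05 were called. SE is the log2 difference over the square root of F. FPKM served only to set levels of different genes side by side. Alternatives used DESeq2 1.42.0, limma 3.58.1, other scalings, filters and library subsets, and the scripts were tested on simulated data.

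Members and gene lists were chosen with earlier results of these data known. Genes named are the 12 largest rises and falls among called genes with a mean of at least 1 CPM (no clone names or receptor segments), called members of each list (up to 4, otherwise the smallest p), and a fixed set of 12. Other genes were chosen after their values were seen. No libraries were identical. Depth ran from 11947339 to 16398340 counts, and the common biological coefficient of variation was 0.0983.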

Additional observations from a re-analysis of the deposited data

Results flagged for a closer look

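In 148 groups of 6 libraries, 10 had a highest or lowest value whose gap to its neighbour was above Dixon's critical value at the 95% level as a share of the group's range, which chance passes in about 1 of 20 groups. Hspa1a, a stress-induced chaperone gene, stood apart in both groups, at 3.04 CPM in SW 1 and 44.5 CPM in HFD 1. In HFD 1 Cd36 was also apart, at 16.4 CPM. HFD 2 stood apart for Bhlhe40 at 13.0 CPM and for Pmaip1 at 39.7 CPM, both called lower in SW. SW 5 was apart for Alg2, at 36.2 CPM, and lowest for Rpl3, at 1934 CPM. Single libraries also stood apart for Hba-a1 (SW 3, 32.1 CPM), Sdhd (SW 2, 63.6 CPM) and Lef1 (HFD 6, 563 CPM). What set these values apart was not tested.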

How the results depend on the processing

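The 116 calls became 17 without the number set, 47 with SW and HFD libraries only, 55 with those and a replicate block, 23 with replicates 3 to 6 only and 2 with replicates 1 and 2 only. They became 337 without a filter on low counts, 329 with DESeq2 and 190 when HFD replicates 1 and 4 were left out together, an alternative chosen after seeing the data. Leaving out 1 library gave 39 to 239 calls. The interaction gave 2 calls with DESeq2, 3 with a replicate block and 0 to 11 without 1 library. With a replicate block in the fit of all libraries 138 genes were called, 100 of them among the 116. Deviations of SW and HFD libraries of the same number correlated at 0.032 to 0.144, and not every library correlated best with its own number, so the numbers were not taken as pairs. Signs turned for uncalled genes near 0: with replicates 1 and 2 only, Flna (0.0023), Cd8b1 (0.0333) and Gpx4 (0.0596); with HFD 1 and 4 left out, Tcrg-C2 (0.0445), Ftl1 (0.0711) and Itga2b (0.0157). Ftl1 was also above 0 with limma-voom (0.0075) and without HFD 4 (0.0316), and ran from -0.0729 to 0.0316 without 1 library. Itga2b was above 0 with replicates 3 to 6 only (0.0505) and without SW 2 (0.0207), SW 3 (0.0026), SW 4 (0.0772) or HFD 3 (0.0293), and ran from -0.18 to 0.0772 without 1 library. The causes were not tested. None of the 116 called genes turned sign under any alternative that tested it. The alternatives share libraries with the fit that picked these genes, so their unchanged signs are no separate support. Car5b, Hist1h4n and Gab2 were not tested in some alternatives. Differences of genes near 1 CPM, such as Hist1h4n, rest on few reads.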

Other observations

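Further called genes, chosen after their values were seen, had differences not described above. Enc1 was lower in SW, at -0.30 ± 0.06 (SE; adjusted p = 0.0102) with edgeR's quasi-likelihood test, and its values were 0.00 for HFD minus ND and -0.30 for SW minus ND, so that SW was the low group as for Socs1. Odc1, the first enzyme of polyamine synthesis, ran from 53.9 to 66.02 CPM (median 61.3) in SW and from 66.5 to 88.96 CPM (median 72.8) in HFD without overlap, at -0.32 ± 0.06 (SE; adjusted p = 0.00867). Lysosomal enzymes Ctsb (-0.21, adjusted p = 0.0102) and Arsb (-0.40, adjusted p = 0.00778) did not overlap between the groups either. Rpn2, a subunit of the oligosaccharyltransferase that places N-glycans, was lower in SW, at -0.20 (adjusted p = 0.0102), whereas Alg2 and Alg11 (0.37, adjusted p = 0.0476), which build the glycan, were higher.

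Apaf1, the scaffold of the apoptosome, was at -0.24 (adjusted p = 0.0487). Ogt, the transferase of O-linked GlcNAc, ran from 494 to 673 CPM (median 519) in SW and from 394 to 511 CPM (median 473) in HFD and was at 0.28 (adjusted p = 0.0251). The splicing-related genes Pnn (0.20, adjusted p = 0.0328), Prpf39 (0.21, adjusted p = 0.04) and Pnisr (0.22, adjusted p = 0.0364) were higher in SW. For Pnisr the values were 0.03 for HFD minus ND and 0.25 for SW minus ND. Car5b, a mitochondrial carbonic anhydrase gene, had the largest fall of all called genes, -2.68 ± 0.46 (SE; adjusted p = 0.00626), at levels from 0.135 to 0.264 CPM (median 0.188) in SW and from 0.585 to 2.44 CPM (median 1.03) in HFD. Calls were kept in all 18 fits without 1 library for Enc1, Odc1, Arsb and Rpn2, in 17 for Ctsb, 15 for Ogt, 15 for Pnn, 13 for Pnisr, 12 for Prpf39, 5 for Alg11 and 2 for Apaf1. Car5b was tested in 14 of these fits and called in each of them.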
